A study of Mus musculus with 12 samples.

Results

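The comparison described here is the change of the Tet2 effect between early and late culture: the difference between Tet2-/- and Tet2fl/fl cells at passage 10 (p10) minus the same difference at passage 2 (p2), in statistical terms an interaction. It uses all 12 arrays of the series, 3 in each of the 4 groups, and all array rows that the probe annotation pairs with 1 gene symbol, which were 23521 of 41345 rows. After a filter on low values and with 1 row kept per gene, 16860 genes were tested.

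The cells came from bone marrow enriched for Kit-positive cells of Tet2fl/fl;CreER mice, in which 4-hydroxytamoxifen (4-OHT) switches on a Cre recombinase that cuts out the floxed part of Tet2. All of them carried the MigR1-AE-IRES-GFP retrovirus, which encodes the leukaemia fusion protein AML1-ETO together with GFP, and had been replated in methylcellulose before they were moved to liquid medium with SCF, IL-3 and IL-6. The Tet2-/- groups received 200 nM 4-OHT for 2 passages (4 days) and the Tet2fl/fl groups received ethanol, so both genotypes shared the floxed alleles, CreER and the oncogene. RNA was taken at p2 and p10 from sorted immature myeloid cells (GFP+, CD11b-, Gr1- and CD16/32+), with passages 2 days apart.

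As a model, the contrast has limits that its design sets. Effects of 4-OHT and of Cre activity cannot be told apart from those of Tet2 loss. Whether the early time point fell at the end of the 4-OHT treatment or later is not given in the labels. Exposure to 4-OHT was more recent at the early than at the late time point, and its part in the interaction was not tested. The labels do not say whether arrays with the same replicate number came from 1 culture or mouse, or if replicates were grown separately. The p-values therefore reflect how much these arrays varied, which may be technical. In a sorted population, fewer cells of a type and less RNA per cell cannot be told apart.

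TET2 converts methylated cytosine to oxidised forms, a step on a route by which DNA loses methylation, and TET2 is often mutated in myeloid leukaemia and in clonal growth of blood cells. AML1-ETO joins the DNA-binding part of the transcription factor RUNX1 to a protein that recruits repressors, and it blocks myeloid differentiation. Because DNA methylation can build up over cell divisions after loss of TET2, the question that a late minus early contrast addresses is which genes differ between the genotypes at one time and not, or less, at the other.

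The arrays were alike in scale. Array medians ran from log2 5.57 to 5.68, with correlations of 0.984 to 0.991 over rows between arrays of the same group. The sorted population carried signal for myeloid progenitor genes: the row of the myeloperoxidase gene Mpo lay at the 99.1th percentile of all rows, that of the cathepsin G gene Ctsg at the 99.9th and that of the CD16 gene Fcgr3 at the 96.7th. All 14 primary granule genes on the array passed the filter. Of the T and NK cell genes 17 of 22 and of the B cell genes 10 of 13 on the array passed it too, with the T cell gene Cd3e at the 31.7th percentile, close to the filter. Genes of other cells had signal as well. Itgam, the gene of the CD11b that the gate excludes, lay at the 79.7th percentile, Ly6g at the 57.5th and the platelet gene Pf4 at the 77.0th. Of the mast cell, basophil and eosinophil genes 29 of 30 on the array passed the filter, with a median at the 90.2th percentile. Percentiles of different probes are a rough guide only. Tet2 had log2 values of 9.94, 9.89 and 10.08 in Tet2fl/fl p2, 9.97, 9.89 and 9.98 in Tet2-/- p2, 9.91, 9.80 and 9.93 in Tet2fl/fl p10, and 9.92, 9.64 and 9.93 in Tet2-/- p10, so the genotypes overlapped at both passages. Its interaction was -0.02 ± 0.11 (SE; 95% interval -0.26 to 0.21). The row sums up probes along the transcript, and which of them lie in the deleted part is not given in the sources used here, so it does not check the deletion, and the genotypes follow the labels.

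For 1 gene in 16860 (0.00593%) the change of the Tet2 effect between passages passed the threshold, an adjusted p under 0.05 in limma's test with the replicate number as a block. That gene was Ifitm3, an interferon-induced membrane protein that hinders the entry of enveloped viruses into cells. The next smallest adjusted p was 0.178 and the third 0.841. An unadjusted p under 0.05 was reached by 838 genes (4.97%), 433 positive (2.57%) and 405 negative (2.4%). A positive value means that Tet2-/- minus Tet2fl/fl was higher at p10 than at p2. Estimates were positive for 48.6% and negative for 51.4% of genes, with a median of -0.01 and a median size of 0.11.

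The design leaves room for changes that it could not call. The median SE of the interaction was 0.15 and the median 95% interval reached 0.33 to either side, both on the log2 scale. For 16141 genes (95.7%) the whole unadjusted interval lay between -1 and 1, so a change of the genotype ratio by more than a log2 unit lay outside it. An interaction larger than 1 in size was estimated for 49 genes, of which 31 had an unadjusted p under 0.05.

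The same fit called far more genes for its parts, and those counts are not counts of interactions. Between genotypes 69 genes (0.409%) passed at p2 and 221 (1.31%) at p10. Between passages 7 genes (0.0415%) passed in Tet2fl/fl cells and 1339 (7.94%) in Tet2-/- cells. A gene past the threshold in one of these and not in its counterpart is not thereby shown to differ between them.

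Ifitm3 lies in a cluster of related genes on mouse chromosome 7, in the order Ifitm5, Ifitm2, Ifitm1, Ifitm3 and Ifitm6. The sequences around the annotated starts of Ifitm3, of its neighbour Ifitm6 and of the related Ifitm2 are shown because Ifitm3 passed and both of these did not. Each window holds 250 bases before and 30 bases from the start (RefSeq, GRCm38.p6), is written 5′ to 3′ on the gene's strand, and lies at chr7:141010715-141010994 (minus strand) for Ifitm3, chr7:141016863-141017142 (minus) for Ifitm6 and chr7:140955932-140956211 (minus) for Ifitm2. Capitals mark matches to GAAANNGAAA, the core of the interferon-stimulated response element (ISRE) that interferon-activated STAT and IRF factors bind.
Ifitm3: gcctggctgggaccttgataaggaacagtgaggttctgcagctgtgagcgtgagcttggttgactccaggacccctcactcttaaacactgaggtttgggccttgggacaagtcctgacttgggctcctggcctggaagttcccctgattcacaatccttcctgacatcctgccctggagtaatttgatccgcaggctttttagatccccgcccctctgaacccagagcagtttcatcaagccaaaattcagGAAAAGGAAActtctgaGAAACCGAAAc
Ifitm6: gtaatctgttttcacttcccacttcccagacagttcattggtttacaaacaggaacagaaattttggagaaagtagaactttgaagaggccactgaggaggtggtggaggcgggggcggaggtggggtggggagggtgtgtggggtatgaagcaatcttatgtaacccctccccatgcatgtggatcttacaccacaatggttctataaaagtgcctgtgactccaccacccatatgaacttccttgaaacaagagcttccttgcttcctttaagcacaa
Ifitm2: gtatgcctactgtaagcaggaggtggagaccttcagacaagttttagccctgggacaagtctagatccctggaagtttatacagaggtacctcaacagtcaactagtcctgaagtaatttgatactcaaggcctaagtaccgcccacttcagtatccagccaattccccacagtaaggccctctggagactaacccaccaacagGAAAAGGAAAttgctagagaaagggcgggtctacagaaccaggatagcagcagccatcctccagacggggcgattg

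The Ifitm3 window held 2 such matches, at positions 3 and 20 counted from the start, and the Ifitm2 window held 1, at position -46. The windows of Ifitm6, Ifitm1 and Ifitm5 held 0. Among 32851 windows of this length, 3.28% held at least 1 match on either strand. For the interferon-gamma activated site, TTCNNNGAA, 7.83% of windows held a match, among them Ifitm3 at position 14, where it overlaps the second ISRE match, and Ifitm6 at -10. The RUNX core TGTGGT was in 15.6% of windows, among them Ifitm6. CpG sites, where DNA methylation mostly occurs, numbered 4 in the Ifitm3 window, 2 in Ifitm6, 4 in Ifitm2, 5 in Ifitm1 and 8 in Ifitm5, against a median of 6. These matches describe letters and not bound sites.

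Ifitm3 had log2 values of 9.65, 9.51 and 9.61 in Tet2fl/fl p2 (replicates 1 to 3) and 9.48, 9.12 and 9.62 in Tet2-/- p2. At p10 it had 10.27, 9.72 and 10.31 in Tet2fl/fl and 8.68, 8.22 and 8.78 in Tet2-/- cells. The genotypes overlapped at p2, while at p10 every Tet2-/- array lay below every Tet2fl/fl array and below all 6 arrays of p2. The difference between genotypes was -0.19 at p2 (adjusted p = 0.468 in limma's test), a ratio of 1.14, and -1.54 at p10 (adjusted p = 0.000514), a ratio of 2.91. The interaction was -1.35 ± 0.14 (SE, n = 3 arrays per group; 95% interval -1.67 to -1.04; adjusted p = 0.0432), with -1.42, -1.10 and -1.54 in replicates 1, 2 and 3. The parts behind it had opposite signs: p10 minus p2 was 0.51 for Tet2fl/fl (adjusted p = 0.083) but -0.85 for Tet2-/- cells (adjusted p = 0.00688), so the fall in Tet2-/- cells passed and the positive difference in Tet2fl/fl cells did not.

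Without the replicate block its adjusted p was 0.999, and 0 genes passed, with 543 at an unadjusted p under 0.05. Its estimate stayed between -1.48 and -1.24 in the 26 other settings that gave it a value, of which 5 left it past the threshold. Among the 12 arrays, only leaving out Tet2fl/fl p2 replicate 2 kept the call (adjusted p = 0.00898 in limma's test), and leaving out any 1 of the other 11 gave 0.0849 to 0.2755.

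**Figure D1:**
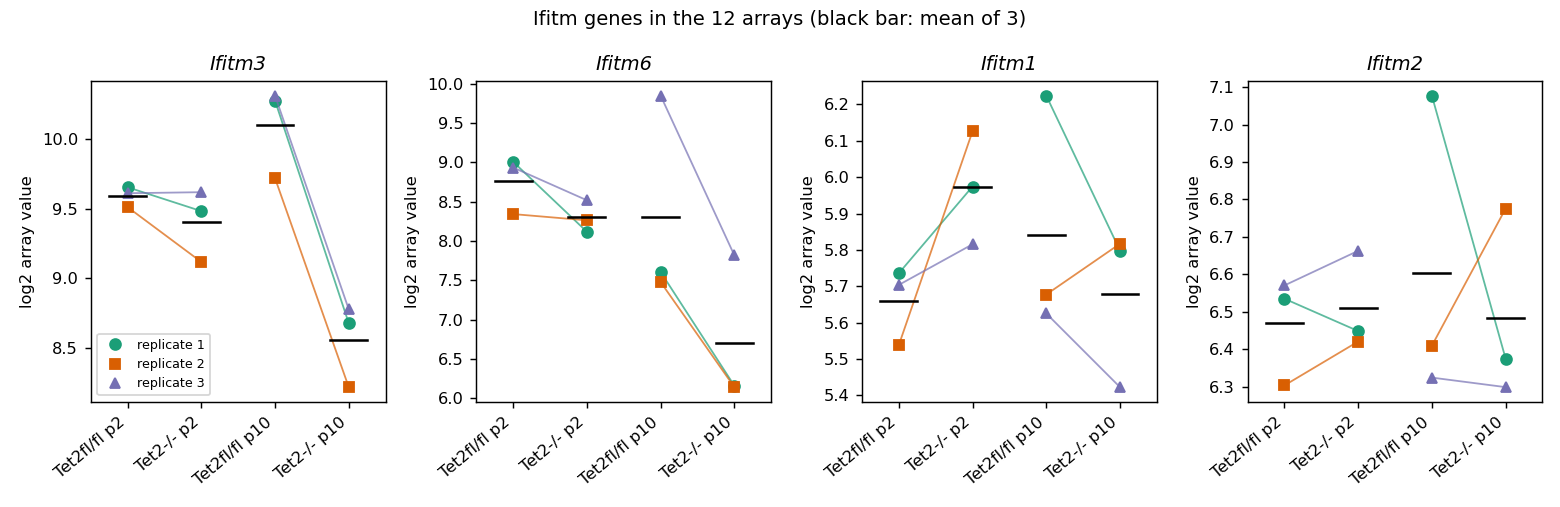
Log2 array values (y axis, with its own scale in each panel) of Ifitm3, Ifitm6, Ifitm1 and Ifitm2 in the 4 groups (x axis), with symbols for replicates 1 to 3, lines joining both genotypes of a replicate number within a passage, and a black bar for the mean of 3. The Ifitm3 lines run nearly level or slightly down at p2 and steeply down at p10, from a mean of 10.10 to 8.56, while those of Ifitm1 and Ifitm2 take no common course at p10.

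Ifitm6, which belongs to the same family and is expressed in myeloid cells, was next in size within the family but did not pass. Its log2 values were 9.01, 8.34 and 8.93 in Tet2fl/fl p2, 8.12, 8.26 and 8.52 in Tet2-/- p2, 7.61, 7.48 and 9.85 in Tet2fl/fl p10, and 6.16, 6.14 and 7.82 in Tet2-/- p10. Replicate 3 stood above the others in both genotypes at p10, so the groups overlapped there although each Tet2-/- array lay below the Tet2fl/fl array of its own number. The interaction was -1.14 ± 0.55 (95% interval -2.38 to 0.10; adjusted p = 0.961), with -0.56, -1.26 and -1.61 by replicate. With passage Ifitm6 fell in Tet2-/- cells (-1.59, adjusted p = 0.0381 in limma's test), and its difference in Tet2fl/fl cells was -0.45.

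The rest of the family and the flanking genes showed smaller values, and none passed. Ifitm1 had an interaction of -0.48 ± 0.19 (unadjusted p = 0.0344), with genotype differences of 0.31 at p2 and -0.16 at p10. Ifitm2, whose window also holds an ISRE core, had -0.16 ± 0.27 (95% interval -0.77 to 0.45), Ifitm5 had 0.19 ± 0.14 and Ifitm10, which lies outside the cluster, had 0.03. Ifitm7, the remaining listed member, had no value among the genes tested. The 3 tested genes on either side of the cluster, chosen after the values were seen, were BC024386 at 0.10, Nlrp6 at 0.42, Pgghg at -0.10, B4galnt4 at -0.17, Pkp3 at 0.02 and Sigirr at -0.17. Their adjusted p-values in limma's test were 0.961 or above. The Ifitm list as a whole had 4 of 6 negative values and a median of -0.32, with the median of all genes at -0.01.

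Other genes that interferon induces were described as a list, since Ifitm3 is one of them. Of 36 measured type I interferon response genes none passed, 22 were negative (20 with equal array medians) and 14 positive, and the median was -0.08. At an unadjusted p under 0.05 there were 4, all negative (11.1% of the list against 4.97% of all genes): Gbp3, a guanylate-binding GTPase, at -0.70 ± 0.16, Xaf1, which promotes cell death, at -0.74 ± 0.23, the RNA sensor gene Ifih1 at -0.65 ± 0.29 and Ifit2, which hinders translation of viral RNA, at -0.43 ± 0.17. Gbp3 reached at most 5.42 in Tet2fl/fl p2 and had 5.69, 5.83 and 5.63 in Tet2-/- p2, then 5.69, 5.85 and 5.14 in Tet2fl/fl p10 and 5.37, 5.73 and 5.18 in Tet2-/- p10. Its genotypes were apart at p2, with Tet2-/- higher, and overlapped at p10, which is another course than that of Ifitm3. The antiviral genes Isg15 (-0.12), Irf7 (0.01), Ifit1 (0.13), Ifit3 (0.21) and Rsad2 (0.23), common readouts of interferon signalling named here after their values were seen, lay on both sides of 0. By replicate the list median was -0.29, 0.11 and -0.10.

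To describe the top of the table, 10 genes in each direction were ranked by p among those with 1 sign in all 3 replicates. A shared sign is part of that rule and held for 4434 genes (26.3%) in all, so it is no support for any of them. Apart from Ifitm3, none of the 20 passed, with adjusted p-values in limma's test from 0.841 to 0.942. Outside the ranking, which left out olfactory receptor genes, Olfr446 came second of all genes by p, with an interaction of 0.83 ± 0.11 (adjusted p = 0.178). Its mean log2 values were 4.92 and 4.48 (Tet2fl/fl and Tet2-/-) at p2 and 4.54 and 4.92 at p10, near the filter at 4.70.

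**Figure D2:**
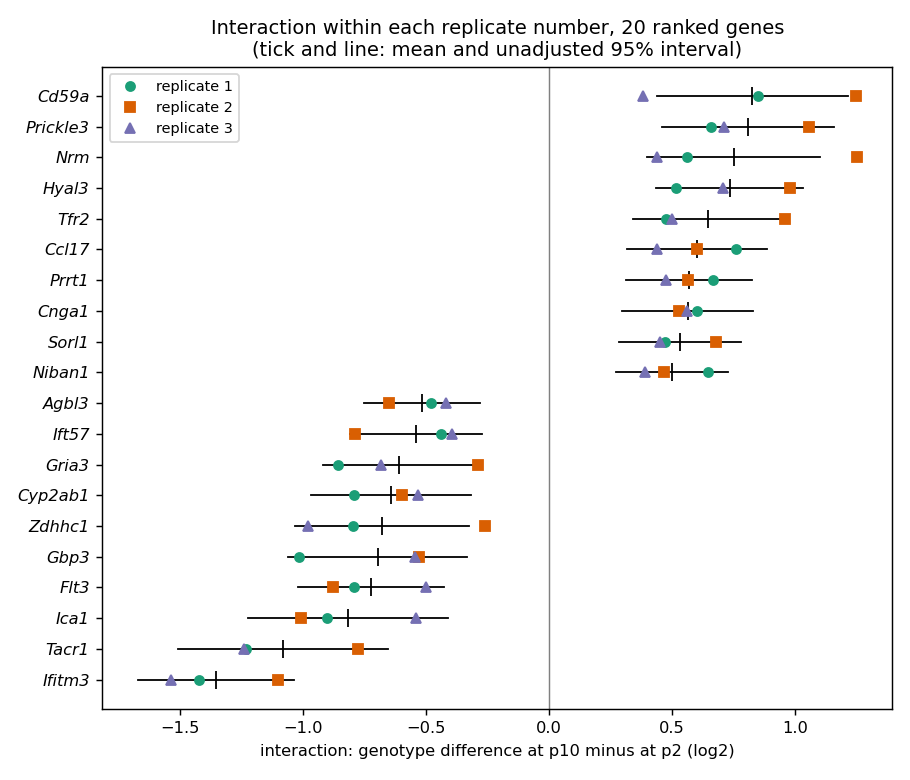
Interaction on the log2 scale (x axis) of the 20 ranked genes (y axis) within replicates 1, 2 and 3 (symbols), with the mean (tick) and unadjusted 95% interval (line). Ifitm3 has the most negative mean, -1.35, and all symbols of a gene lie on 1 side of 0 because the ranking required it.

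Of the 10 genes ranked on the negative side, 7 had a genotype difference at p2 that was at least 2 times that at p10. Tacr1, the receptor for the neuropeptide substance P, had 6.19, 6.35 and 6.76 in Tet2fl/fl p2 and 7.34, 7.04 and 7.95 in Tet2-/- p2, then 5.95 to 6.15 in Tet2fl/fl p10 and 5.86, 5.91 and 6.10 in Tet2-/- p10. The Tet2-/- arrays of p2 stood above all 9 others. The genotype difference was 1.01 at p2 (adjusted p = 0.0302 in limma's test) and -0.08 at p10 (adjusted p = 0.879), and the interaction was -1.08 ± 0.19 (adjusted p = 0.841).

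Flt3, a growth factor receptor of early progenitors and dendritic cells that is often mutated in acute myeloid leukaemia, took the same course at a low signal. It had 5.23, 5.20 and 5.30 in Tet2fl/fl p2 and 6.02, 5.83 and 5.77 in Tet2-/- p2, against 5.64, 5.41 and 5.48 in Tet2fl/fl p10 and 5.63, 5.16 and 5.45 in Tet2-/- p10. The genotypes were apart at p2 and overlapped at p10. The differences were 0.63 (adjusted p = 0.0418) and -0.10 (adjusted p = 0.736 in limma's test), and the interaction was -0.72 ± 0.13 (95% interval -1.02 to -0.43; adjusted p = 0.841). Flt3 fell with passage in Tet2-/- cells (-0.46, adjusted p = 0.0224), and its passage difference in Tet2fl/fl cells was 0.26.

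The other ranked negative genes serve unrelated functions. Ift57, a part of the transport machinery of cilia, was 0.57 higher in Tet2-/- cells at p2 (adjusted p = 0.0418 in limma's test) and differed by 0.03 at p10. Gria3, an AMPA-type glutamate receptor subunit, went from 0.65 (adjusted p = 0.0418) to 0.04, and the cytochrome P450 gene Cyp2ab1 from 0.60 (adjusted p = 0.0487) to -0.04. Zdhhc1, from a family of palmitoyltransferases, went from 0.53 to -0.15. Agbl3, a carboxypeptidase that trims glutamates from proteins, went from 0.26 to -0.26, and the membrane trafficking gene Ica1 from 0.42 to -0.40. For these 6 genes the interaction lay between -0.82 ± 0.18 (Ica1) and -0.52 ± 0.11 (Agbl3). The signal of Agbl3 and Cyp2ab1 was low, with group means of 5.07 to 5.44 and 5.18 to 5.78.

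On the positive side 7 of the 10 ranked genes had the larger genotype difference at p10, by at least 2 times. Tfr2, which senses iron-loaded transferrin and serves red cell formation, had 7.28, 7.32 and 7.33 in Tet2fl/fl p2 and 7.53, 7.50 and 7.45 in Tet2-/- p2, then 7.23, 7.02 and 7.23 in Tet2fl/fl p10 and 7.96, 8.16 and 7.85 in Tet2-/- p10. The genotypes did not overlap at either passage, and the gap was wider at p10. The genotype difference was 0.18 at p2 (adjusted p = 0.456) and 0.83 at p10 (adjusted p = 0.00822 in limma's test), with an interaction of 0.64 ± 0.14 (adjusted p = 0.841).

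Hyal3, a member of the hyaluronidase family, had 9.14, 9.32 and 9.23 in Tet2fl/fl p2, 9.09, 9.06 and 9.05 in Tet2-/- p2, 9.27, 9.21 and 9.52 in Tet2fl/fl p10 and 9.74, 9.94 and 10.05 in Tet2-/- p10. The Tet2-/- arrays were the lowest at p2 and the highest at p10. The genotype difference went from -0.16 (adjusted p = 0.502) to 0.57 (adjusted p = 0.0248 in limma's test), and Hyal3 rose with passage in Tet2-/- cells (0.84, adjusted p = 0.00618), with 0.10 in Tet2fl/fl cells. Its interaction was 0.73 ± 0.13 (adjusted p = 0.841), with 0.44 to 1.03 as the 95% interval.

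Sorl1, a sorting receptor for proteins in endosomes, differed in how it came about. It was higher in Tet2-/- cells at p2 (0.51, adjusted p = 0.0418) and at p10 (1.05, adjusted p = 0.001 in limma's test). Its values were 9.03, 9.06 and 9.28 in Tet2fl/fl p2, 9.52, 9.57 and 9.82 in Tet2-/- p2, 8.48, 8.46 and 8.91 in Tet2fl/fl p10 and 9.43, 9.64 and 9.91 in Tet2-/- p10. The Tet2-/- values were level between passages (0.03), while the passage difference in Tet2fl/fl cells was -0.51 (adjusted p = 0.0511). The interaction was 0.53 ± 0.11.

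Of the remaining ranked positive genes, 3 were higher in Tet2-/- cells at p10 and had a difference below 0 at p2. Cd59a, which protects cells from the complement attack complex, went from -0.15 to 0.67 (adjusted p = 0.0372 in limma's test), the planar polarity gene Prickle3 from -0.08 to 0.72 (adjusted p = 0.021) and the nuclear envelope gene Nrm from -0.14 to 0.61 (adjusted p = 0.0365). Cnga1, a channel gated by cyclic GMP, went from 0.15 to 0.71 (adjusted p = 0.00858). The stress-response gene Niban1 (-0.17 to 0.33), the chemokine gene Ccl17 (-0.24 to 0.36) and Prrt1, a partner of AMPA-type receptors (-0.39 to 0.18), passed at neither passage. Prrt1 had a low signal, with group means of 5.26 to 5.65.

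In size the passage difference was larger in Tet2-/- than in Tet2fl/fl cells for 8 of the 10 negative and 9 of the 10 positive genes, against 61.4% of all genes. The ranking used the same arrays, so this is a description only. Ccl17, for example, rose in Tet2-/- cells by 0.95 (adjusted p = 0.00513 in limma's test), with 0.35 in Tet2fl/fl cells. Sorl1 and the negative genes Agbl3 and Gbp3 had the larger passage difference in Tet2fl/fl cells.

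**Figure D3:**
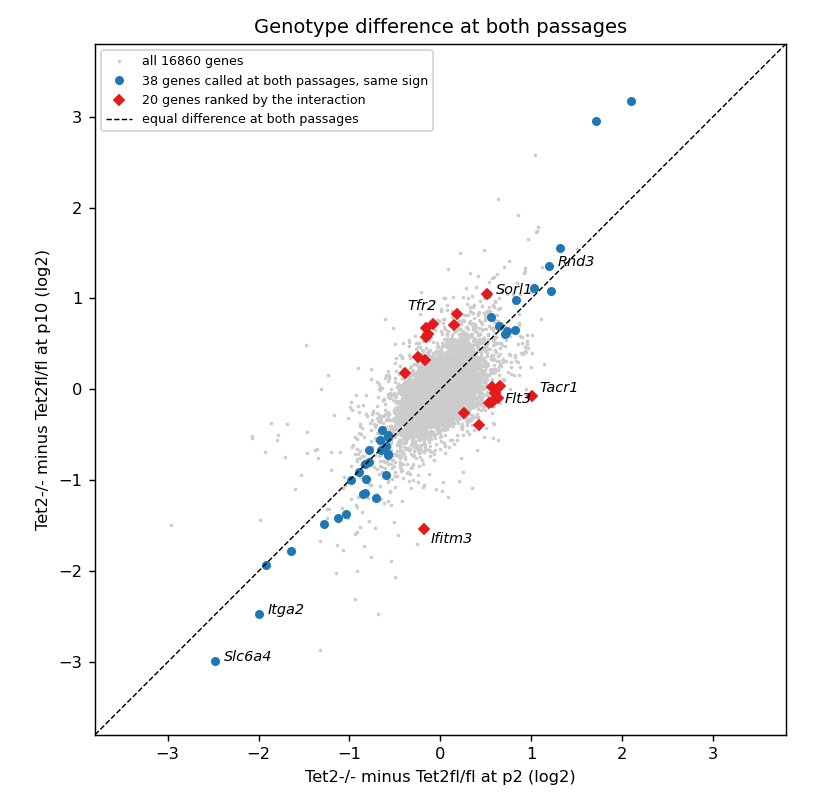
Genotype difference (Tet2-/- minus Tet2fl/fl, log2) at p2 (x axis) against p10 (y axis) for all 16860 genes (grey), with the 20 ranked genes (diamonds), the 38 genes called at both passages with 1 sign (blue) and the line of equal difference (dashed). Ifitm3 stands below the line at -0.19 and -1.54, while 35 of the 38 blue points lie within 0.50 of the line and Gm2046 departs most, at 1.72 and 2.96.

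Genes that passed between genotypes at both passages are described next. There were 39 of them, 38 of them with the same sign, 25 lower and 13 higher in Tet2-/- cells, and none of the 38 passed for the interaction. Their interactions ran from -0.50 to 1.24 with a median of -0.01, and for 33 the unadjusted 95% interval held 0. Since passing at both passages selects for differences of like size, this describes the genes and does not test them. Olfr446 was the exception in sign.

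The list of mast cell, basophil and eosinophil genes holds 3 of the 38, of which Kit also marks the bone marrow cells enriched at the start. Slc6a4, the serotonin transporter, differed by -2.48 at p2 and -2.98 at p10, an interaction of -0.50 (95% interval -1.29 to 0.29). Itga2, an integrin subunit that binds collagen, differed by -2.00 and -2.47 (interval -1.53 to 0.58), and Kit, the receptor for stem cell factor, by -0.83 and -0.82 (interval -0.41 to 0.43). These intervals show how large a change between passages the data leave possible: for Kit the interval reached 0.43 upward and 0.41 downward, while for Itga2 it reached more than a log2 unit downward.

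Others of the 38 had tighter or wider margins. Lhfp had an interaction of -0.01 (above 0 with equal array medians or quantile normalization), Tpbgl of -0.21, Rnd3, a small GTPase that loosens the actin skeleton, of 0.17, and Aff3, a fusion partner in leukaemia, of -0.13. With an unadjusted p under 0.05 there were 5: the actin-binding gene Mtss1 (-0.71 at p2 and -1.19 at p10, interaction -0.48 ± 0.17), the aspartate transaminase gene Got1 (-0.60 and -0.94, interaction -0.34 ± 0.13), Notch3, a cell fate receptor (0.55 and 0.80, interaction 0.24 ± 0.10), Sorl1 and Gm2046 (1.72 and 2.96, interaction 1.24 ± 0.39). In size 28 of the 38 were larger at p10. Gm2046 and Gm2022 (interaction 1.08 ± 0.49) belong to a group of predicted genes with close copies, which may share probes, so their values are uncertain.

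Among the gene lists, those of glycolysis and hypoxia leaned most to one side. This list holds the enzymes that break down glucose, glucose transporters and genes that low oxygen induces. Of 32 measured genes, 30 had a positive interaction, with a median of 0.23, and none passed or reached an unadjusted p under 0.05. Of all genes 48.6% were positive, and 4.97% had an unadjusted p under 0.05. The median genotype difference was 0.21 at p2 and 0.43 at p10. The largest contributions came from Egln3, an oxygen sensor (0.68 ± 0.59), the aldolase gene Aldoc (0.54 ± 0.24), the growth factor gene Vegfa (0.40) and the hexokinase gene Hk2 (0.40 ± 0.20).

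The mean of this list varied more among the Tet2fl/fl arrays than among the Tet2-/- arrays. The list mean ran from 9.51 to 10.18 in Tet2fl/fl p10 and from 9.74 to 10.18 in Tet2fl/fl p2, while it stayed between 10.15 and 10.33 in Tet2-/- p10 and between 10.09 and 10.22 in Tet2-/- p2. By replicate the median interaction was 0.09, 0.33 and 0.14. Aldoc, for example, had 9.67, 9.86 and 8.95 in Tet2fl/fl p2, 9.86, 10.08 and 9.84 in Tet2-/- p2, 9.84, 9.33 and 9.38 in Tet2fl/fl p10 and 10.53, 10.74 and 10.20 in Tet2-/- p10. The Tet2-/- arrays of p10 were above all Tet2fl/fl arrays of both passages. The part that the spread among the Tet2fl/fl arrays has in the list's lean was not tested.

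Immediate early genes, which cells switch on within minutes of stimulation or handling, had 20 of 23 positive values and a median of 0.17. Among all genes 48.6% were positive. The nuclear receptor gene Nr4a3 had 5.55, 6.19 and 6.32 in Tet2fl/fl p2, 4.91, 4.88 and 5.23 in Tet2-/- p2, 5.32, 5.60 and 6.28 in Tet2fl/fl p10 and 5.36, 5.34 and 5.55 in Tet2-/- p10. The Tet2-/- cells had less of it at p2 (-1.02, adjusted p = 0.0418 in limma's test) and its groups overlapped at p10 (-0.31, adjusted p = 0.398). Its interaction was 0.70 ± 0.22. Jun (0.71 ± 0.32) and Klf2 (0.44 ± 0.19) were the others with an unadjusted p under 0.05, which makes 3 of 23 (13%, against 4.97% of all genes). By replicate the list median was 0.42, -0.13 and 0.21, so the lean was absent in replicate 2.

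Genes of ribosome biogenesis and targets of Myc leaned the other way: 28 of 34 were negative (51.4% of all genes were), and their median was -0.14. The nucleolar genes Nop58 (-0.46 ± 0.18) and Nop14 (-0.37 ± 0.13), which take part in processing ribosomal RNA, had an unadjusted p under 0.05, as did Gnl3 (-0.37 ± 0.16). These 3 are 8.82% of the list, against 4.97% of all genes. Nop58 ran at 9.43, 9.54 and 9.81 in Tet2fl/fl p2, 9.82, 9.84 and 10.04 in Tet2-/- p2, 9.37, 9.44 and 9.06 in Tet2fl/fl p10 and 9.04, 9.20 and 9.20 in Tet2-/- p10. Its genotypes were apart at p2 and overlapped at p10, and it fell with passage in Tet2-/- cells (-0.75, adjusted p = 0.0129 in limma's test). By replicate the list median was -0.44, 0.13 and -0.18, again with replicate 2 on the other side. The counts of these 3 lists were the same with equal array medians and with quantile normalization, which moved the median of all genes to 0.01 in either case.

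**Figure D4:**
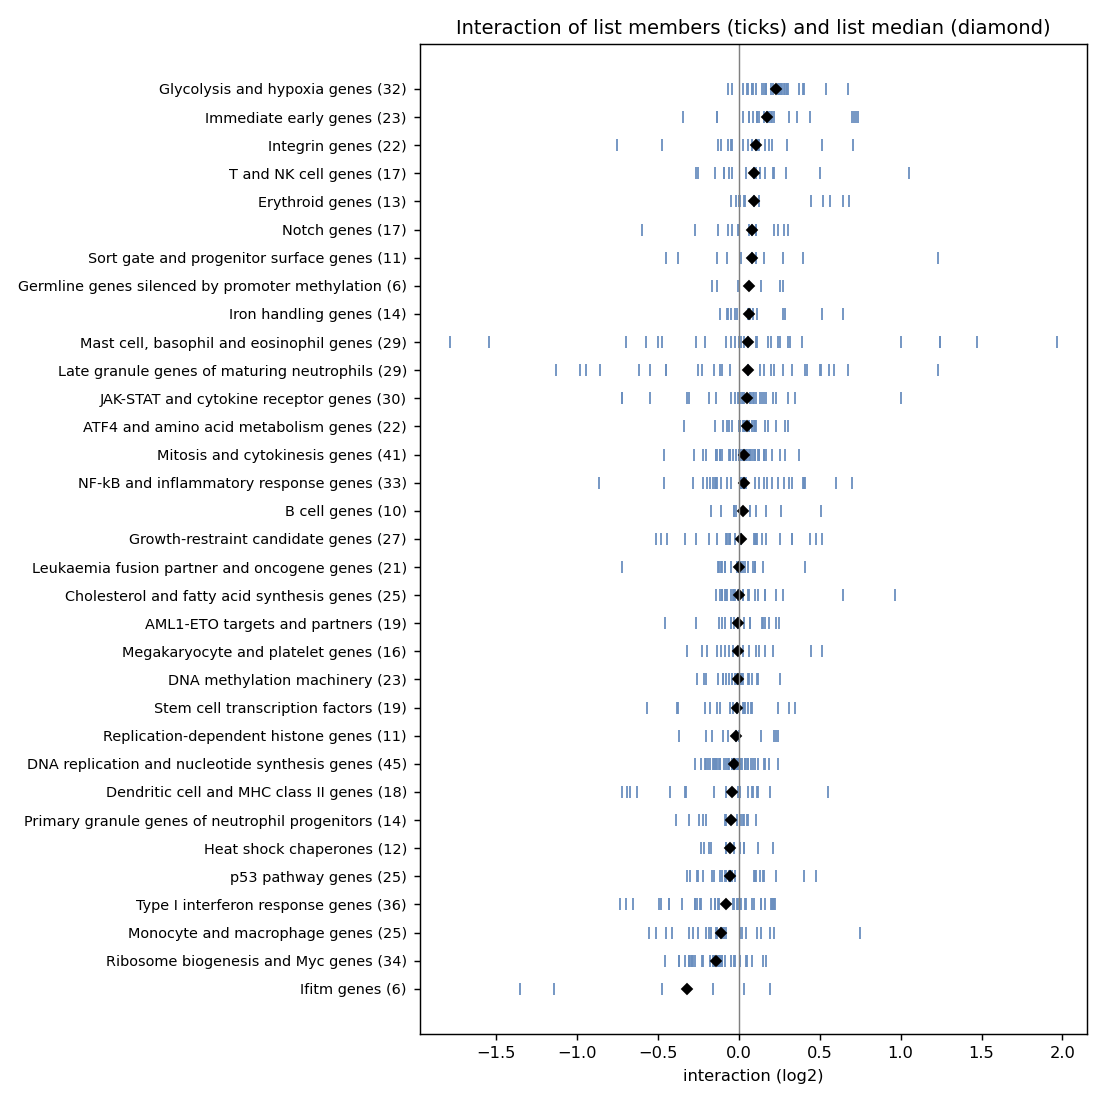
Interaction on the log2 scale (x axis) of each measured member (ticks) of the gene lists with over 1 measured gene (y axis, number measured in brackets) and the list median (diamond). Glycolysis and hypoxia genes have the highest median, 0.23, and the Ifitm genes the lowest, -0.32, a list of only 6.

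Of 24 listed erythroid genes 13 were measured, with a median of 0.09. Positive values numbered 10, or 11 with equal array medians and 12 with quantile normalization. At an unadjusted p under 0.05 there were 4, all positive. That is 30.8% of those measured, against 4.97% of all genes in either direction and 2.57% on the positive side. The 4 were Tfr2, the master regulator genes Gata1 (0.52 ± 0.15) and Klf1 (0.56 ± 0.23), and Rhag (0.68 ± 0.24), which encodes a membrane protein of red cells. Gata1 had 9.74, 9.75 and 9.79 in Tet2fl/fl p2, 9.36, 9.38 and 9.38 in Tet2-/- p2, 9.47, 9.67 and 9.84 in Tet2fl/fl p10 and 9.95, 9.57 and 9.88 in Tet2-/- p10. It stood lower in Tet2-/- cells at p2 with no overlap (-0.38, adjusted p = 0.173) and overlapped at p10 (0.14). Of these 4 genes the genotype differences of Gata1 and Klf1 changed sign, while those of Tfr2 and Rhag were positive at both passages. The mean of the list lay between 6.90 and 7.31 on all arrays of p10 and between 7.08 and 7.25 on those of p2. By replicate the list median was 0.34, 0.09 and 0.03, so the lean was largest in replicate 1.

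Genes of mast cells, basophils and eosinophils held the widest spread of all lists, from -1.79 to 1.97, with 17 positive, 12 negative and a median of 0.06. Alox15, a lipoxygenase of eosinophils, had 10.21, 10.40 and 10.17 in Tet2fl/fl p2, 8.62, 8.78 and 8.95 in Tet2-/- p2, 10.36, 7.90 and 10.28 in Tet2fl/fl p10 and 10.45, 9.09 and 10.47 in Tet2-/- p10. A wide gap at p2 was not seen at p10, where replicate 2 was low in both genotypes. The interaction was 1.97 ± 0.65 (95% interval 0.52 to 3.42; adjusted p = 0.942).

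Fcer1a, the chain of the high-affinity receptor that binds IgE, went the opposite way. It had 9.02, 9.14 and 10.32 in Tet2fl/fl p2, 8.18, 8.64 and 9.59 in Tet2-/- p2, 9.26, 10.75 and 10.84 in Tet2fl/fl p10 and 8.37, 7.69 and 7.36 in Tet2-/- p10. At p2 the groups overlapped, although each Tet2-/- array lay below the Tet2fl/fl array of its own number (-0.69, adjusted p = 0.543). At p10 the groups were apart, with less Fcer1a in Tet2-/- cells (-2.48, adjusted p = 0.034 in limma's test). The interaction was -1.79 ± 0.62 (95% interval -3.18 to -0.40; adjusted p = 0.946), with -0.045, -2.57 and -2.75 by replicate, so replicate 1 showed almost none of it.

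Late granule genes of maturing neutrophils split evenly, 15 positive and 14 negative, with a median of 0.06. Ly6g, the neutrophil marker whose protein the Gr1 gate removes, had 4.77, 5.60 and 6.80 in Tet2fl/fl p2, 5.06, 6.32 and 6.04 in Tet2-/- p2, 5.54, 5.61 and 5.76 in Tet2fl/fl p10 and 6.34, 7.61 and 6.92 in Tet2-/- p10. The genotypes were apart only at p10 (1.32, adjusted p = 0.0887 in limma's test), and the interaction was 1.23 ± 0.47. Csf3r, the G-CSF receptor, had -0.55 ± 0.18. The mean of this list ran from 6.95 to 8.19 within Tet2fl/fl p10 and from 7.05 to 7.73 within Tet2-/- p10, a wide range within groups for genes of cells that the gate should leave out, and its part in these values was not tested.

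None of the genes of other blood cells passed. Monocyte and macrophage genes had 17 of 25 negative, with a median of -0.11, and dendritic cell and MHC class II genes 10 of 18 negative, with a median of -0.04. In the latter list 3 of 18 had an unadjusted p under 0.05 (16.7%, against 4.97% of all genes), 2 negative and 1 positive. Of these Flt3 stood on the negative side and H2-Oa, which tunes peptide loading of MHC class II, on the positive (0.55 ± 0.15, genotype difference -0.04 at p2 and 0.51 at p10). Of the T and NK cell genes Tigit, a checkpoint receptor, had 1.05 ± 0.40. It was higher in Tet2-/- cells at p10 (1.54, adjusted p = 0.0372 in limma's test), with 0.48 at p2. For the interaction it was the 1 of 17 with an unadjusted p under 0.05 (5.88%, near the 4.97% of all genes). Primary granule genes, which mark the sorted stage, had 8 of 14 negative, a median of -0.05 and a range of only -0.39 to 0.10.

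None of the genes of the DNA methylation machinery reached an unadjusted p under 0.05. Of 23 measured members 11 were positive and 12 negative, the median was -0.01 and the range was -0.26 to 0.25. Among 19 targets and partners of AML1-ETO, Lmo2, a bridging factor of blood stem cell transcription complexes, was the 1 with an unadjusted p under 0.05 (-0.46 ± 0.20). That share (5.26%) is near the 4.97% of all genes, and the list median was -0.0046. In the list of candidate growth-restraining genes, which holds genes the study may have picked on these samples, 5 of 27 had an unadjusted p under 0.05 (18.5%, against 4.97% of all genes), and the median was 0.01. The 3 negative ones were Mtss1, Ctdspl, a phosphatase (-0.52 ± 0.20), and Cdkn2a, an inhibitor of the cell cycle (-0.45 ± 0.18). The 2 positive ones were Klf2 and the adaptor gene Sla2 (0.51 ± 0.20).

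Several other lists held medians near that of all genes, and none of their members passed. The stem cell transcription factors had 9 positive and 10 negative values, with a median of -0.01, and 0 of 19 had an unadjusted p under 0.05. Among the 45 DNA replication genes (median -0.03) and the 12 heat shock chaperones (median -0.05) that number was 0 as well. Of the germline genes that promoter methylation keeps silent in body tissues, 6 of 19 could be measured, 3 on each side of 0, from -0.17 for Brdt, a testis bromodomain gene, to 0.27 for Piwil2, which serves small RNAs of the germline. The 13 others had no value among the genes tested. The mean of the measured ones lay between 4.93 and 5.18 on all arrays, near the filter at 4.70, so their values say little.

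Further lists had members with an unadjusted p under 0.05, where 4.97% of all genes did. Among these were 2 of 17 Notch genes (11.8%), 2 of 22 integrin genes (9.09%) and 2 of 14 iron handling genes (14.3%). The cholesterol and fatty acid list had 1 of 25 (4%) and the NF-kB and inflammatory list 3 of 33 (9.09%). Described here is 1 gene from each of these lists. Of those left out, the integrin gene Itgae had 0.71 ± 0.23, and the other 2 of the inflammatory list were positive, unlike Il1rn. Hes1, a repressor that Notch signals induce, had -0.60 ± 0.22, with genotype differences of -0.06 at p2 and -0.66 at p10. The integrin subunit gene Itgb3, part of the platelet fibrinogen receptor, had 0.51 ± 0.15 and went from -0.25 to 0.26. Slc40a1, which encodes the iron exporter ferroportin, had 0.52 ± 0.21 and went from -0.55 to -0.04. Abca1, which moves cholesterol out of cells, had 0.96 ± 0.40 and went from 0.32 to 1.28. Il1rn, which encodes a blocker of the interleukin 1 receptor, had -0.47 ± 0.15 and went from 0.37 to -0.09. Their adjusted p-values in limma's test lay between 0.942 and 0.961. The courses differ from gene to gene: for Hes1 and Abca1 the wider genotype difference was at p10, and for Slc40a1 and Il1rn it was at p2. The sort gate and progenitor surface genes had a larger share, 3 of 11 (27.3%), all positive, Ly6g and Ly6c2 (0.39 ± 0.16) among them. Given by count only are JAK-STAT and cytokine receptor genes (3 of 30, 10%), leukaemia fusion partner genes (2 of 21, 9.52%) and ATF4 genes (2 of 22, 9.09%). The same holds for histone (1 of 11), B cell (1 of 10), megakaryocyte (1 of 16) and p53 pathway genes (1 of 25).

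Genes of mitosis show how counts per genotype can mislead. With passage 28 of the 41 measured genes fell in Tet2-/- cells, where 4.68% of all genes fell, and 3 (Anln, Cdkn3 and Kif11) in Tet2fl/fl cells, where 0.0356% did. Yet all 41 differences were negative in both genotypes, with medians of -0.48 in Tet2-/- and -0.49 in Tet2fl/fl cells, and 38 and 40 had an unadjusted p under 0.05 (26% and 14% of all genes). The gap in counts came with the adjustment over all genes: the largest unadjusted p that passed was 0.00397 in Tet2-/- cells and 1.93e-05 in Tet2fl/fl cells, and 33 of the Tet2fl/fl members lay under the former. The interaction had a median of 0.03 over the list, 26 positive and 15 negative values, and none passed. The centromere protector gene Sgo2a (-0.28 ± 0.11) and the kinetochore gene Spc25 (-0.46 ± 0.19) had an unadjusted p under 0.05. These 2 of 41 (4.88%) are near the share of all genes (4.97%).

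**Figure D5:**
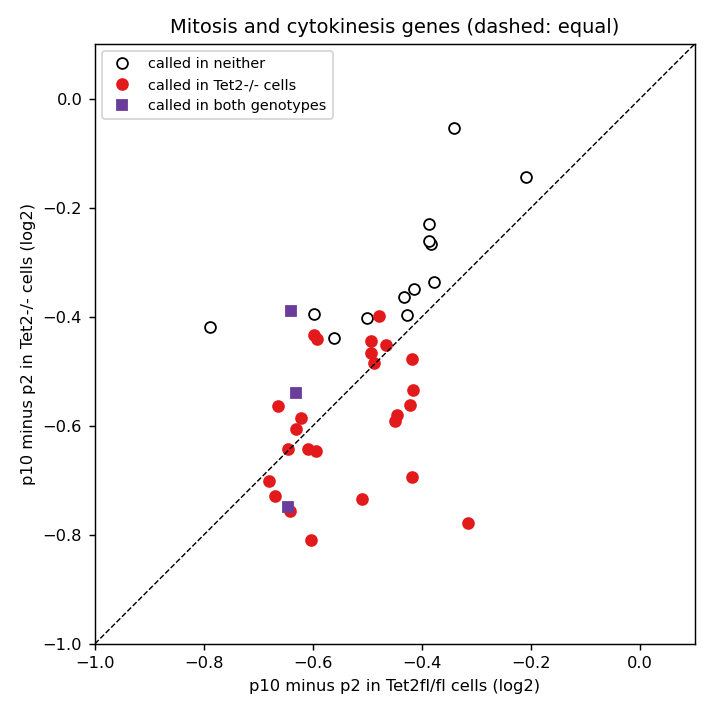
Passage difference (p10 minus p2, log2) of the 41 mitosis and cytokinesis genes in Tet2fl/fl cells (x axis) against Tet2-/- cells (y axis), with symbols for genes called in neither, in Tet2-/- cells or in both genotypes, and the line of equal difference (dashed). The points lie on both sides of the line, although 28 genes were called in Tet2-/- cells and 3 in Tet2fl/fl cells.

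Beyond mitosis, genes called for passage in Tet2-/- cells mostly had the same sign in Tet2fl/fl cells. The 550 that rose (3.26%) had a median of 0.45 in Tet2-/- and 0.21 in Tet2fl/fl cells, and the 789 that fell (4.68%) had -0.51 and -0.26, where the choice of these genes on the Tet2-/- arrays favours larger values in them. Of these, 93.1% and 96.2% had that sign in Tet2fl/fl cells (73.8% of all genes had 1 sign in both genotypes), and 1, Ifitm3, passed for the interaction. Of the 7 genes called in Tet2fl/fl cells, Slco4c1, an organic anion transporter (interaction 0.69 ± 0.25), Lgr4, a receptor that strengthens Wnt signals (0.62 ± 0.15), and Gsn, which severs actin filaments (0.35 ± 0.11), had an unadjusted p under 0.05, 3 of 7 where 4.97% of all genes did. Their choice on the Tet2fl/fl arrays favours larger values there. Slco4c1 and Lgr4 had the larger fall in Tet2fl/fl cells, -1.44 against -0.75 and -0.85 against -0.22, while Gsn rose more in Tet2-/- cells, 0.92 against 0.57.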

How the data were processed

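Total RNA (100 ng per sample) of the sorted cells was hybridised to 12 Affymetrix Mouse Gene ST 2.0 arrays. The authors deposited log2 values obtained by RMA in Affymetrix Power Tools, per the submitters' processing notes. Tool versions and the array annotation's genome build: not given in the sources used here. All fits took the deposited values unchanged.

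Rows with a mean below the 30th percentile of the 41345 rows (log2 4.70) were dropped, which left 28941 rows, 17828 of them with 1 gene symbol (of all rows, 1814 had several symbols and 16010 had none). Symbols were updated by gene ID from RefSeq (GRCm38.p6), with 23328 of 23521 rows matched. The row of highest mean stood for each of 777 genes with several. A mean per group plus the replicate number as a fixed block was fitted with limma 3.58.1 in R 4.3.3 (6 residual and 3.93 prior degrees of freedom), with two-sided moderated tests adjusted by Benjamini and Hochberg over 16860 genes and a threshold of 0.05. Lists are given by counts and medians, with no list test. The steps were tested on simulated data.

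The block is part of the definition of this contrast, and pairing was checked besides. Deviations from group means correlated at 0.201 to 0.517 between arrays of the same number in different groups (18 pairs). Between different numbers they correlated at -0.369 to 0.0532 (36 pairs), and in 36 of 36 cases the closest array of another group shared the number. Deviations cancel out within a group, so positive correlations between same numbers push those between different numbers down. With a random block the consensus correlation was 0.123. The number of arrays limits the precision. Median SDs within groups were 0.111 to 0.137.

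Genes named were Tet2, 10 per direction by p among genes with 1 sign in all replicates (predicted, olfactory and small RNA genes left out) and, from each list, the members nearest to the threshold. Members and lists were chosen with earlier results of these data known. Promoter windows came from RefSeq.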

Additional observations from a re-analysis of the deposited data

Results flagged for a closer look

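For Ifitm3 the test of the difference between the Tet2 effects at p10 and p2 passed in the fit with the replicate block: the interaction was -1.35 on the log2 scale (adjusted p = 0.0432 in limma's test; -1.42, -1.10 and -1.54 in the 3 replicates). The call did not hold in most other settings: 5 of 26 left it past the threshold, and leaving out any 1 of 11 of the 12 arrays ended it. With a random block the adjusted p was 0.598, and through the per-replicate values it was 0.124.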

How the results depend on the processing

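In the fit described 1 gene passed, and that count became 0 with no replicate block (smallest adjusted p 0.999, with the pairing by replicate number ignored), with a random block (0.598), through the 3 per-replicate values (0.124), with equal array medians (0.0551), with no filter (0.0675), with array weights (0.0747), with rows not collapsed to genes (0.053) and, in an alternative chosen after seeing the data, with all rows above the filter (0.243). It stayed at 1, Ifitm3, with quantile normalization (adjusted p = 0.0389), limma's trend and robust options (0.00406), a 50th percentile filter (0.0353) and the mean of a gene's rows (0.0408). Leaving out arrays or replicate numbers gave 0 to 1 genes, and an interaction of Ifitm3 from -1.48 to -1.26. The 1 gene was Gnb4 (-2.12, adjusted p = 0.0121; -1.34 in the fit with all arrays), named after its value was seen, without replicate 1 in all groups. It was Ifitm3 without Tet2fl/fl p2 replicate 2.

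The interaction of Ifitm3 was -1.35 with no, a random or a per-replicate block, without the filter and with rows not collapsed, -1.34 with equal medians and -1.24 with array weights, and missed the threshold in each. Without replicate 1, 2 or 3 in all groups it was -1.32, -1.48 and -1.26 (adjusted p = 0.721, 0.362 and 0.666).

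Estimates near 0 changed sign: Tet2 ran from -0.061 to 0.036 when single arrays were left out and was 0.043 without replicate 2 in all groups, Xist was 0.021 without replicate 2 in all groups, and Rpa3 was 0.0068 with the mean of its rows. Of the ranked genes and those nearest to the threshold in each list, no other changed direction in any setting. For 43 other named genes only equal medians and quantile normalization were tried, after seeing the data: 42 kept their sign, and Lhfp (-0.01) turned to 0.0017 and 0.0095. The number of arrays limits which changes could be called.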

Other observations

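The list of mast cell, basophil and eosinophil genes held members on opposite sides, seen after their values were known. The whole list had 17 positive and 12 negative values with a median of 0.06. The genes named here were picked from it by their values, so they show no split of the list by cell type. The eosinophil granule genes Epx (1.47 ± 0.82), Prg2 (1.24 ± 0.79) and Prg3 (1.24 ± 0.73) and the interleukin 5 receptor gene Il5ra (1.00 ± 0.46) had positive interactions in all 3 replicates, with genotype differences of -2.96, -1.79, -1.93 and -1.47 at p2 and -1.49, -0.55, -0.69 and -0.47 at p10. The mast cell protease gene Mcpt4 had -1.55 ± 0.84, with 0.51, -1.68 and -3.46 by replicate. None passed (adjusted p = 0.961 for each in limma's test). The spread within groups was wider at p10: for Epx the SD was 0.20 and 0.35 at p2 (Tet2fl/fl and Tet2-/-, n = 3) and 1.32 and 1.50 at p10.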
